A study of Mus musculus with 6 samples.

Results

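AP-1 is a family of transcription factors that bind DNA as pairs of basic leucine zipper (bZIP) proteins. The transcripts of its subunits were examined in large peritoneal macrophages, which reside in the cavity around the gut, from mice with and without the proton-activated chloride channel PAC. The subunits were taken by symbol from the deposited gene table, and all 10 of them (Jun, Junb, Jund, Fos, Fosb, Fosl1, Fosl2, Atf3, Batf and Batf3) are among its 20336 genes and passed the filter on low counts. The floxed control libraries (3) came from mice labelled PAC F/F, and the PAC knockout libraries (3) from mice whose genotype label is Cxcr3-PAC-/- and whose design text names Cx3cr1, a gene active in monocytes and macrophages, as the driver of the deletion. Both groups received E. coli into the peritoneum for 30 min before lavage, staining and sorting. The age of the mice is not stated, nor whether each library came from its own mouse, so the p-values reflect how these 6 libraries vary, and that variation may be technical. Since only the knockout has a named driver, a driver allele and channel loss cannot be told apart. Uninfected cells were not analysed here, so induction by infection cannot be read from these values.

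Jun proteins pair with each other or with Fos proteins, whereas Fos proteins need a Jun-type partner. Such pairs recognise the TPA response element and the related cAMP response element in promoters and enhancers of growth, stress and inflammatory genes. Fos, Fosb, Jun, Junb and Atf3 are immediate early genes: their transcription starts within minutes of a stimulus through MAP kinases and needs no new protein. Jund is the member of the Jun family that many resting cells make steadily. Batf and Batf3 lack an activation domain and act with Jun proteins and interferon regulatory factors in lymphocytes and dendritic cells.

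The 150 bases upstream of the RefSeq start (GRCm38.p6) are shown for the Jun family and for Fos, since the results below turn on how these genes differ. Capitals mark matches, on either strand, to a set of motifs. These include TGANTCA (any middle base, so wider than the TPA response element), TGACGTCA (cAMP response element), TGACNTCA (which includes TGACGTCA) and TGACG (the first bases of TGACGTCA). The others are GGGCGG (GC box), CCAAT (the motif bound by NF-Y), TATAAA (the start-positioning box) and the CArG box.
Jun, chr4:95052223-95052372, minus strand: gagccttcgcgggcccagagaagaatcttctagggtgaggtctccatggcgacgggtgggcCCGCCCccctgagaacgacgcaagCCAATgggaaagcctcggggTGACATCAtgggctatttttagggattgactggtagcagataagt
Junb, chr8:84978749-84978898, minus strand: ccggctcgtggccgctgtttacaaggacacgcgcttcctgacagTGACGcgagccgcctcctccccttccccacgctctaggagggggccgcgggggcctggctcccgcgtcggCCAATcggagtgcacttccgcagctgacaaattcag
Jund, chr8:70697589-70697738, plus strand: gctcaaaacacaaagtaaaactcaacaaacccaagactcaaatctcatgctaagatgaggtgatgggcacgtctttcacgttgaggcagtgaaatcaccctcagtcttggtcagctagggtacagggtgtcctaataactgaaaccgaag
Fos, chr12:85473740-85473889, plus strand: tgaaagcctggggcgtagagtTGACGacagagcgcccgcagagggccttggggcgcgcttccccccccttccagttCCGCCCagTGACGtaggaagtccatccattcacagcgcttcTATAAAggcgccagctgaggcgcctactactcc

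The Fos stretch holds 2 TGACG matches, a GC box and a TATAAA whose first base lies at -33 from the start. The Jun stretch holds TGACATCA from -45 to -38, a CCAAT and a GC box, and the Junb stretch 1 TGACG and 1 CCAAT. No match to these letters lies in the Jund stretch, which is also the poorest of these in G and C (45.3%, against 58.0% for Jun, 62.7% for Fos and 68.0% for Junb). The counted Jund row begins 1210 bp downstream of the RefSeq start. GENCODE M21 exons lie in none of the printed stretches. In windows that run on to 50 bases after the RefSeq start, exons of Jun, Junb and Fos appear, and none of Jund. Whether the Jund stretch is the promoter of the counted Jund transcript was not tested. Windows from 250 bases before to 50 bases after the RefSeq start were at hand for 9 of the 10 genes, Jund included. In those windows TGANTCA, TGACGTCA and the CArG box matched in 0 of the 9, and of all 32851 windows of that length they match in 7.81%, 1.79% and 1.63%. TGACNTCA matched in Jun alone of the 9 and in 8.83% of all windows. TGACG matched in 5 of the 9 and in 20.8% of all windows, and the GC box in 7 of the 9 and in 35.7%. CCAAT matched in 3 of the 9 and in 37.4% of all windows, and TATAAA in 2 of the 9 and in 13.6%. A match describes these letters in these windows and is not a measured binding site. Bases outside the windows were not searched, so 0 matches does not mean that a gene lacks the motif.

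The rows that were counted do not all begin at the RefSeq start. Those of Atf3, Fosl2 and Batf3 begin 34706, 671 and 567 bp upstream of it, and their windows entered the motif counts above. The Jund row of the deposited table (ENSMUSG00000071076, chr8:70698949-70700616, plus strand, 1668 bp) is a single exon in GENCODE M21 and begins 1210 bp downstream of the RefSeq start, so its printed stretch is not next to the counted exon. The rows of Fos (ENSMUSG00000021250, chr12:85473890-85477273, plus strand) and Jun (ENSMUSG00000052684, chr4:95049034-95052222, minus strand) begin at the RefSeq start, and the row of Junb (ENSMUSG00000052837, chr8:84974484-84978718, minus strand) begins 30 bp from it. The Junb row overlaps Prdx2 on the other strand by 351 bp and the Jun row overlaps the antisense gene Junos by 689 bp. The sources used here do not give the strand setting of the counting, so reads of such overlaps cannot be assigned with certainty; Prdx2 and Junos averaged 68.7 and 0.629 CPM (counts scaled to library size). The other 8 rows overlap no gene of the table.

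Library totals ranged from 15981530 to 20648832 counts. The targeted gene, listed as Tmem206, had 6.33, 12.2 and 8.16 CPM in controls (replicates 1, 2 and 3) and 4.27, 6.13 and 5.49 CPM in knockouts. These groups did not overlap, as was so for 9.33% of all genes tested. The log2 fold change of Tmem206 was -0.75 (SE 0.31, edgeR unadjusted p = 0.0367, adjusted p = 0.997), so the test used below did not call it. These counts cover the whole gene and not the deleted part alone. Defining markers of large peritoneal macrophages were present in all libraries, with Gata6 at 59.4 to 94.8 CPM and Adgre1 at 1792 to 2687 CPM. Of 6 T and NK cell markers, 5 stayed below 1 CPM in every library, and Il7r had 0.948 to 3.55 CPM with a log2 fold change of 0.96 (SE 0.61). Summed over 6 genes, B cell markers reached 202 CPM in control replicate 2 and 115 CPM in knockout replicate 1, against 19.95 to 61.5 CPM in the other 4 libraries. Summed over 6 genes, markers of small peritoneal macrophages and monocytes had 116 to 278 CPM in controls and 47.5 to 100.8 CPM in knockouts.

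Junb was the leading AP-1 transcript of these macrophages in every library. Levels are compared between genes as FPKM (fragments per kilobase of gene, scaled to the mapped reads), which the authors deposited. Junb, a Jun protein that often restrains Jun while sharing its partners, had 1463 ± 129 FPKM in the control and 1339.6 ± 143 FPKM in the knockout (SD, n = 3). It ranked between 22 and 41 among the 20336 genes of the table, depending on the library. Fos followed with a mean of 253 FPKM over the 6 libraries, then Atf3 with 195, Jun with 169, Jund with 154 and Fosl2 with 131 FPKM. Each neighbouring pair among these 5 genes overlapped in its ranges, so the order of neighbours is not fixed by these libraries. Fos (at least 186 FPKM) and Atf3 (at least 157 FPKM) lay above Fosl2 (112 to 153 FPKM) in every library. Fosb (40.0 to 91.4 FPKM) lay below all 5 genes without overlapping Fosl2. Fosl1 (6.29 to 17.9 FPKM) and Batf (6.23 to 11.5 FPKM) overlapped each other far below Fosb, and Batf3 was lowest with 0.887 to 2.19 FPKM. Gene length changes this order: Fosl2, with a row length of 9680 bp, had more reads than Fos (2352 bp) in every library, yet a lower FPKM.

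Junb made up 58.8% ± 3.65 of the summed FPKM of the 10 genes in the control and 58.8% ± 3.76 in the knockout (SD, n = 3). Fos contributed 10.1% ± 2.86 and 10.8% ± 0.354, Atf3 7.96% ± 1.36 and 8.36% ± 1.18, and Jun 6.90% ± 2.82 and 6.94% ± 2.07. The share of Jund was 10.4%, 6.39% and 6.58% in the controls (replicates 1, 2 and 3) and 4.67%, 4.90% and 5.58% in the knockouts. The Jund shares of the 2 groups did not overlap, and control replicate 1 stood above the other control libraries. Within the Jun family alone, Jund made up 10.6% ± 3.29 of the FPKM in the control and 7.12% ± 0.399 in the knockout. Summed Fos family FPKM (Fos, Fosb, Fosl1, Fosl2) divided by summed Jun family FPKM (Jun, Junb, Jund) was 0.254, 0.277 and 0.215 in the control and 0.317, 0.295 and 0.254 in the knockout, and the groups overlapped. The summed FPKM of all 10 genes was 2498 ± 298 in the control and 2284 ± 278 in the knockout, a difference smaller than either SD.

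**Figure D1:**
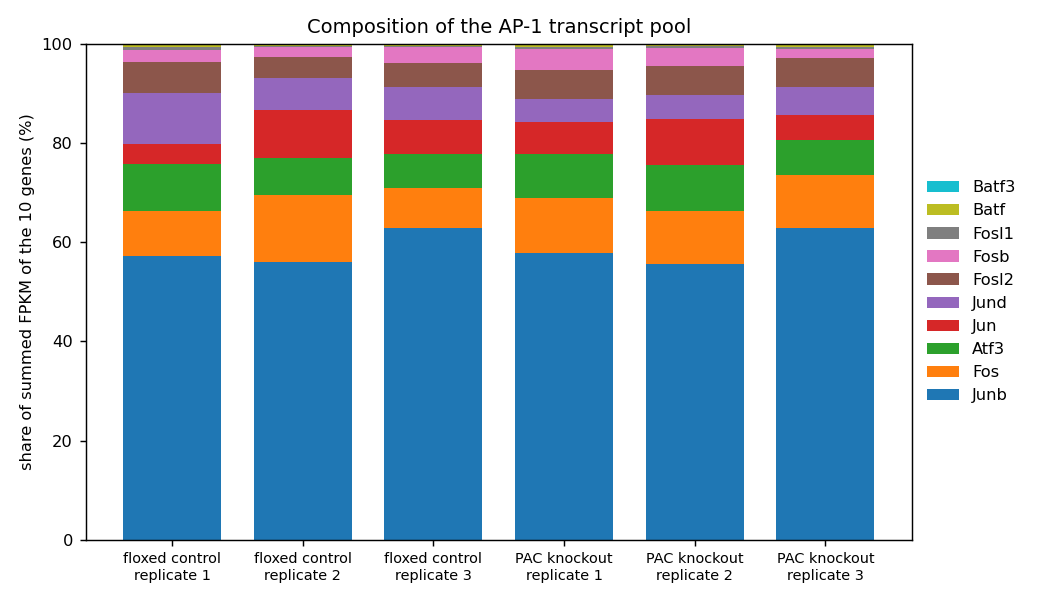
Stacked bars give the share of each gene in the summed FPKM of the 10 AP-1 genes (y axis, percent) for each of the 6 libraries (x axis). Junb takes between 55.6% and 62.9% in every library, and the Jund band is 4.67% to 5.58% in the knockout and 6.39% to 10.4% in the control.

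The comparison of the genotypes asks how AP-1 transcripts of infected macrophages differ when PAC is deleted. With edgeR's quasi-likelihood test on the counts of all 12786 genes that passed the filter, 0 of the 10 subunits passed at an adjusted p of 0.05, and 0 of all genes did (0%). At an unadjusted p under 0.05 there was 1 of the 10, Jund, against 534 of all genes tested (4.18%). The 2 groups did not overlap for 1 of the 10, again Jund, against 9.33% of all genes. Values were higher in the knockout for 4 of the 10, against 48.8% of all genes, and lower for 6. The median log2 fold change was -0.05 over the 10 and -0.0079 over all genes tested. DESeq2 called 1 of the 10, Jund, and 21 genes in all (0.18%), while limma-voom called 0 genes.

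Jund had 351, 270.01 and 231 CPM in controls (replicates 1, 2 and 3) and 142, 187 and 186 CPM in knockouts (replicates 1, 2 and 3). Every knockout library lay below every control library, with control replicate 3 nearest to the knockout. The means were 284 ± 61.4 CPM in controls and 172 ± 25.6 CPM in knockouts (SD, n = 3), so the knockout stood at 60.6% of the control. On the log2 scale the difference was -0.72 (standard error, SE, 0.18), with a 95% interval of -1.11 to -0.34. Jund ranked 16 of 12786 genes by edgeR p (unadjusted p = 0.00174), and its adjusted p was 0.997. The exact permutation test (two-sided) returned p = 0.10, its lowest possible value for 3 libraries against 3. A log2 fold change of at least this size was found in 8.33% of all genes tested.

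Whether Jund passed depended on the filter and the tool. With no filter on low counts, edgeR's adjusted p over all genes was 0.00602, in a run that called 38 of 20336 genes (0.187%). DESeq2 gave a log2 fold change of -0.73 with an adjusted p of 0.0485. The authors' deposited table gives Jund -0.73 and an adjusted p of 0.0452, 1 of 22 genes under 0.05 there (0.108% of the table). Its fold changes and unadjusted p-values for the 10 subunits nearly equal those of DESeq2 here. The DESeq2 call and the authors' call of Jund are therefore not independent. The authors' deposited table gives the other 9 subunits an adjusted p of 0.999. The size of the difference varied less than the call: leaving out each library in turn gave log2 fold changes from -0.85 (without control replicate 3) to -0.54 (without control replicate 1), with 0.161 as the lowest edgeR adjusted p. Without the B-cell-richest library of each group the value was -0.64. The summed markers of small peritoneal macrophages and monocytes were also lower in every knockout library than in every control library, and their part in the Jund difference was not tested. Fewer cells of a type and less RNA per cell cannot be told apart in bulk samples.

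**Figure D2:**
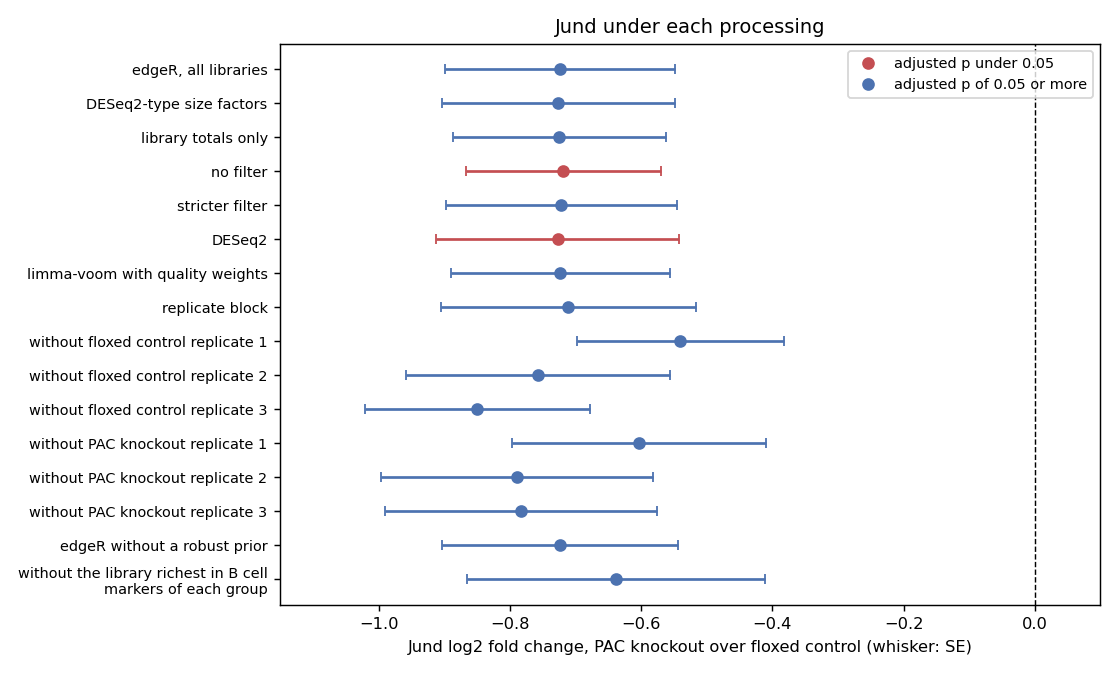
The x axis gives the log2 fold change of Jund, knockout over control, with its SE as whiskers, and each line of the y axis is 1 way of processing the counts. The values lie between -0.85 and -0.54, and the adjusted p was under 0.05 with no filter and with DESeq2 only.

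Of the other Jun genes, Jun spread widely within groups and Junb did not. Jun, the founding subunit and a target of the kinase JNK, had 266, 786 and 460.3 CPM in controls and 374, 675 and 332 CPM in knockouts, in the same order. The highest and the lowest library were both controls, 2.96-fold apart, and replicate 2 was highest in each group. The log2 fold change was -0.13 (SE 0.46) with a 95% interval of -1.27 to 1.00, which does not exclude a doubling or a halving. Without control replicate 2 it was 0.34, and without knockout replicate 2 it was -0.51. Junb had 2683, 3270.1 and 3048 CPM in controls and 2430.05, 2935 and 2903 CPM in knockouts. It varied least between libraries together with Fosl2, at 1.35-fold and 1.34-fold from lowest to highest, and its groups overlapped. Its log2 fold change was -0.12 (SE 0.14), with a 95% interval of -0.43 to 0.19 that overlaps that of Jund; the difference between the 2 genes was not tested.

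Fos differed between control libraries more than between genotypes. Fos, which pairs with Jun proteins and is among the first genes switched on by a stimulus, had 427, 797 and 397 CPM in controls and 483, 576 and 499 CPM in knockouts. The knockout libraries lay within the range of the controls, and control replicate 2 alone lay above 576 CPM. The log2 fold change was -0.06 (SE 0.25, 95% interval -0.63 to 0.51), and without control replicate 2 it was 0.34 (edgeR unadjusted p = 0.0467, adjusted p = 0.999). Control replicate 2 is also the library richest in B cell markers and the highest for Jun and Junb. Among knockouts, replicate 2 was highest for Fos, Jun and Junb, yet had the lowest sum of B cell markers (23.5 CPM). The part of B cells in the Fos levels was not tested. Fosb, a close relative of Fos with the same partners, had 286, 340 and 415 CPM in controls and 481, 506 and 224 CPM in knockouts. Knockout replicates 1 and 2 held the most Fosb and knockout replicate 3 the least. Its log2 fold change was 0.22 (SE 0.30), and 0.51 without knockout replicate 3.

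The Fos-related antigens had unlike levels and no difference past the test. Fosl2, which encodes Fra-2 and had the second highest CPM of the family, averaged 1086 ± 131 CPM in controls and 1170.3 ± 139.6 CPM in knockouts (SD, n = 3). Its libraries ran from 985 to 1317 CPM, with a log2 fold change of 0.11 (SE 0.14, 95% interval -0.21 to 0.43). Fosl1, which encodes Fra-1, had 26.7, 9.57 and 12.95 CPM in controls and 16.2, 16.0 and 13.5 CPM in knockouts. Control replicate 1 lay above and control replicates 2 and 3 below all knockout libraries, and the log2 fold change was -0.11 (SE 0.34). Without control replicate 1 it was 0.44, and without control replicate 2 it was -0.38.

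Atf3, a stress-induced bZIP factor that dampens inflammatory transcription in macrophages, had 416, 407 and 314 CPM in controls and 346, 458 and 303 CPM in knockouts. The groups overlapped nearly throughout, with a log2 fold change of -0.04 (SE 0.18, 95% interval -0.43 to 0.35). Batf averaged 10.6 ± 3.22 CPM in controls and 11.9 ± 1.68 CPM in knockouts (SD, n = 3), with a log2 fold change of 0.18 (SE 0.26). Batf3, which dendritic cells need for their cross-presenting subset, had 24 to 52 counts per library and averaged 2.14 ± 0.890 and 2.53 ± 0.553 CPM, a log2 fold change of 0.24 (SE 0.50, 95% interval -0.85 to 1.34). That interval includes a doubling. Of the 6 dendritic cell markers listed, Cd209a (2.11 to 8.44 CPM) and Zbtb46 (1.42 to 6.13 CPM) had the highest values. Xcr1 had 0.737 to 3.25 CPM, Clec9a 0.103 to 1.25, Flt3 0.0526 to 0.927 and Itgae 0 to 0.754 CPM. Their sum was 6.79 to 18.6 CPM in controls and 8.53 to 13.8 CPM in knockouts, and their part in the Batf3 values was not tested.

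**Figure D3:**
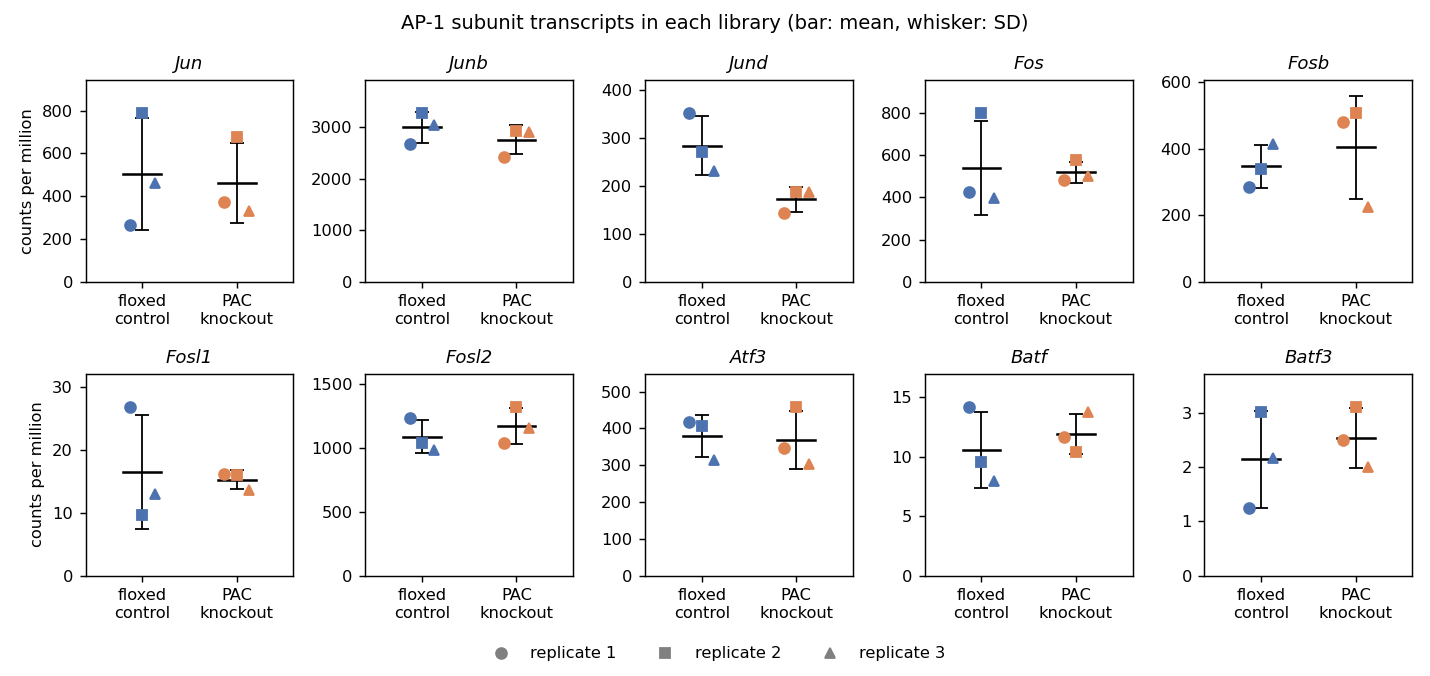
Each panel plots the CPM of 1 AP-1 gene (y axis, from 0) in the floxed control and PAC knockout libraries, with the mean as a bar and the SD as whiskers. Jund is the gene whose groups are apart (231 to 351 CPM against 142 to 187 CPM), and the control libraries of Jun and Fosl1 are spread over 2.96-fold and 2.79-fold.

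**Figure D4:**
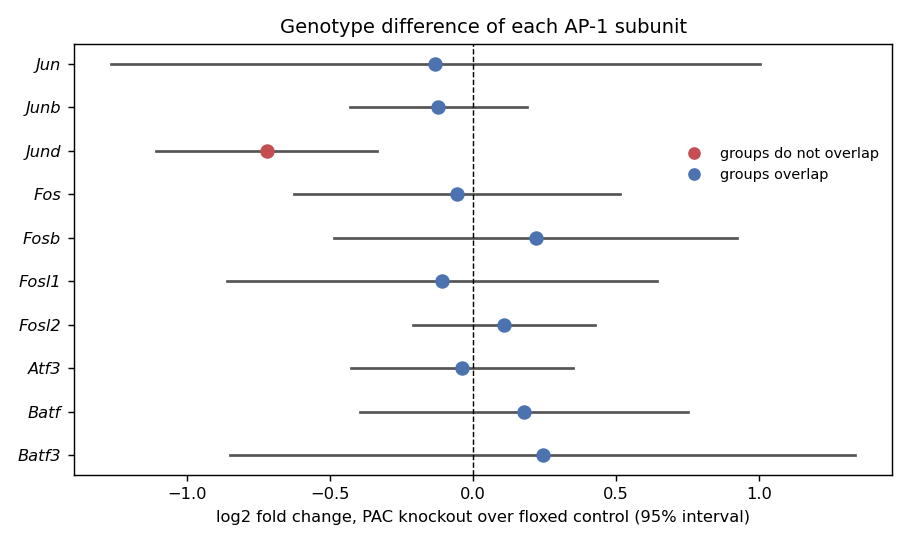
Points give the log2 fold change of each gene, knockout over control, and lines its 95% interval from the edgeR fit. The interval of Jund (-1.11 to -0.34) lies below 0 and those of the other 9 genes include 0.

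Some of these genes are neighbours. Atf3 (chr1:191170296-191218039) and Batf3 (chr1:191097847-191108945) lie 107873 and 216967 bp from Tmem206, on the side of its start, and 61351 bp from each other. For both, the control and knockout libraries overlapped. Between Atf3 and Tmem206, Nenf, which encodes a secreted neurotrophic protein, stood at 0.50 (SE 0.23) in log2 fold change, and on the far side Ppp2r5a, a regulatory subunit of protein phosphatase 2A, had -0.04 (SE 0.12). These 2 genes adjoin Tmem206 and were chosen after their values were seen. Fos and Batf are 209396 bp apart on chromosome 12 and did not share a pattern: Fos was highest in control replicate 2, and Batf in control replicate 1.

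The 6 libraries did not order the subunits alike. Knockout replicate 2 was the highest library for 4 of the 10 (Fosb, Fosl2, Atf3, Batf3), control replicate 1 for 3 (Jund, Fosl1, Batf) and control replicate 2 for 3 (Jun, Junb, Fos). Control replicate 1 was also the lowest library for Jun and Batf3. As a measure of likeness, the root mean square difference of centred log2 CPM over the 6 libraries was taken, where 0 would be an identical pattern. The most alike pairs were Fosl2 and Atf3 (0.17) and Junb and Fosl2 (0.21), and the least alike was Jun and Fosl1 (0.93). Among 7494 other protein-coding genes with a mean of at least 10 CPM, those nearest to Jund were the tubulin gene Tuba1a (0.11), Irf8 (0.12) and the tubulin gene Tuba4a (0.14). Irf8 encodes an interferon regulatory factor of the myeloid lineage that binds DNA with BATF proteins. It had 78.0, 69.5 and 58.2 CPM in controls and 41.0, 53.2 and 48.9 CPM in knockouts, a log2 fold change of -0.52 (SE 0.15, edgeR adjusted p = 0.997). Tuba1a had -0.72 (SE 0.18) and Tuba4a -0.54 (SE 0.19), and they share with Jund that control replicate 1 was highest and knockout replicate 1 lowest. Those nearest to Fos were Cables2 (0.098), Arid3a (0.10) and Apcdd1 (0.11), all highest in control replicate 2 and between 11.1 and 21.5 CPM. With 6 libraries and 7494 candidates, near patterns are found for many genes, and these are a description.

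**Figure D5:**
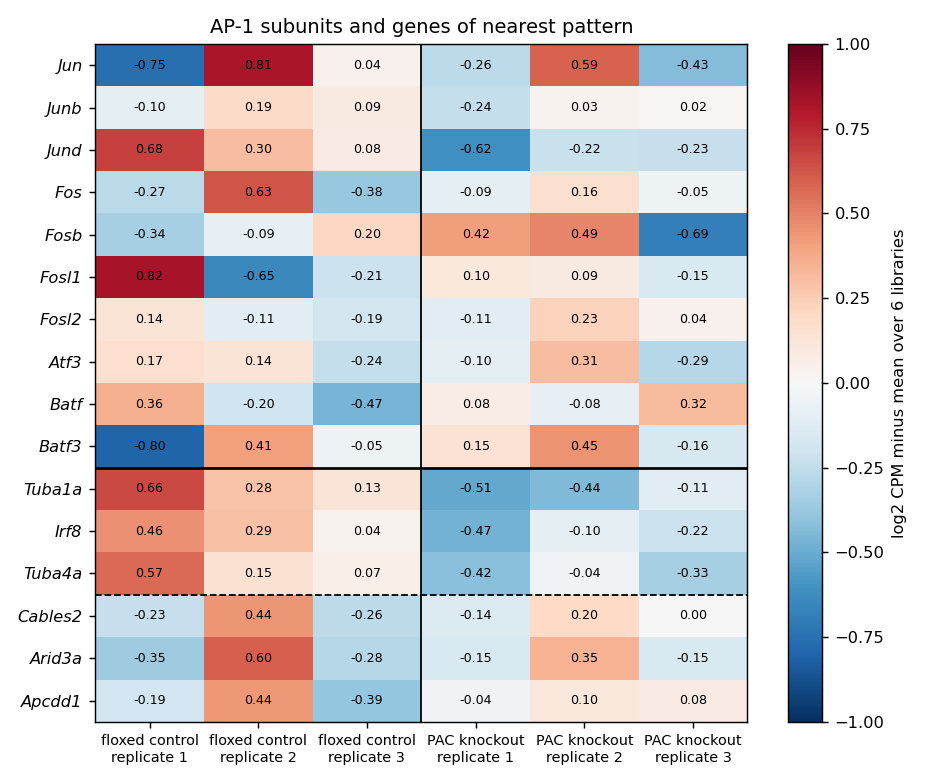
Colours and numbers give log2 CPM minus the gene's mean over the 6 libraries, for the 10 AP-1 genes (above the solid line), the 3 genes nearest to Jund (middle) and the 3 nearest to Fos (bottom). Jund and its 3 nearest genes are above their mean in all control libraries and below it in all knockout libraries, while Fos and its nearest genes are highest in control replicate 2. The nearest genes were chosen by their likeness in these same values, so the shared pattern follows from the choice.

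Around AP-1, partners and competitors of the bZIP class had a median log2 fold change of -0.08, with 7 of 20 higher, 13 lower and 0 past the edgeR test. At an unadjusted edgeR p under 0.05 there were 3 of the 20, against 4.18% of all genes tested. Mafg, a small Maf protein, had 150.03 ± 20.4 CPM in controls and 116 ± 5.23 CPM in knockouts (SD, n = 3), with a log2 fold change of -0.38 (SE 0.13). Crem, a cAMP-responsive factor with repressor forms, had 26.5 ± 4.19 and 40.8 ± 12.97 CPM, a log2 fold change of 0.62 (SE 0.22). Both had an edgeR adjusted p of 0.997 and groups that did not overlap, as did 4 of the 20 genes, against 9.33% of all genes tested. Among the most abundant was Cebpb, a bZIP factor of inflammatory genes, with a log2 fold change of -0.12 (SE 0.13).

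Of 22 genes upstream of AP-1, namely MAP kinases and the ternary complex factors with Srf, 7 were higher and 15 lower. Of the 22, 0 passed the edgeR test and 0 had an unadjusted p under 0.05, against 4.18% of all genes tested. Their log2 fold changes ran from -0.28 for Map3k5 (SE 0.15), a stress-activated kinase, to 0.17. The JNK gene Mapk8 had -0.23 (SE 0.18) and the p38 gene Mapk14 -0.06 (SE 0.14). Of 18 brakes on AP-1, 9 were higher and 9 lower, with 0 past the test and 0 at an unadjusted p under 0.05 (4.18% of all genes). Dusp1, a phosphatase of MAP kinases, averaged 5399 ± 821 CPM in controls and 5382 ± 316 CPM in knockouts. Its log2 fold change was -0.0047 (SE 0.15). Zfp36, which marks AU-rich transcripts such as that of Fos for decay, had 0.08 (SE 0.15), the ubiquitin ligase gene Cop1, whose product degrades Jun, -0.30 (SE 0.18), and Men1, whose product menin binds JunD, 0.40 (SE 0.27).

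Genes known as AP-1 targets likewise gave 0 past the edgeR test among 22 tested of 24 listed, with 14 higher, 8 lower and a median log2 fold change of 0.08. An unadjusted edgeR p under 0.05 was found for 2 of the 22, against 4.18% of all genes tested. Mmp9, a matrix metalloproteinase, averaged 68.9 ± 26.5 CPM in controls and 39.7 ± 8.41 CPM in knockouts (SD, n = 3), with a log2 fold change of -0.79 (SE 0.29), and its groups overlapped. The cytokine gene Il6 had a log2 fold change of 0.26 (SE 0.13), without overlap, and the chemokine gene Cxcl2, the most abundant of the list, 0.12 (SE 0.17). Heat shock genes, which like Fos and Jun respond to the handling of cells, had 9 of 10 higher and 1 lower. Of the 10, 0 passed the test and 1 had an unadjusted edgeR p under 0.05. Hspe1, a mitochondrial chaperone, had 0.49 (SE 0.22), the co-chaperones Dnajb1 0.47 (SE 0.34) and Dnaja1 0.20 (SE 0.18), and the abundant Hspa8 0.07 (SE 0.16). Their summed level, of which Hspa8 alone averaged 3266 CPM, was highest in knockout replicate 1 (6273 CPM). It was lowest, and nearly equal, in control replicate 2 (4063 CPM) and knockout replicate 3 (4079 CPM). Control replicate 2 is the library with the most Fos and Jun, and the part of handling in these levels was not tested.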

How the data were processed

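PolyA RNA from sorted large peritoneal macrophages was sequenced in 6 libraries, grouped by genotype from their titles. The submitters' processing notes name HISAT2 2.0.5, featureCounts 1.5.0-p3 and mm10; the annotation release, strand setting and treatment of multi-mapping reads are not stated there. The deposited raw counts were tested. FPKM values were made by the authors from each gene's length and reads, per the labels' protocols. The deposited normalised signal (count divided by a size factor per library) was not used. The log2 fold change, p-value and adjusted p-value columns are the authors' own, from a tool that the sources used here do not name. For the subunits, their fold changes and unadjusted p-values nearly equal those of DESeq2 here. Columns of other samples numbered 0.

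Counts were filtered with edgeR's default (12786 genes kept), scaled by TMM and tested in R 4.3.3 by the quasi-likelihood test of edgeR 4.0.16 with a robust prior, genotype as the only term, with Benjamini-Hochberg adjustment over all genes tested. SEs came from the F statistic, and intervals from the t distribution with the fit's degrees of freedom. CPM uses TMM-scaled totals; 3 counts correspond to 0.154 to 0.190 CPM, for counting error only. Alternatives used DESeq2 1.42.0 and limma 3.58.1. No pair of libraries agreed within sampling noise (chi-square per gene at least 23.5). The test was tested on simulated data. Promoter sequences are from RefSeq, GRCm38.p6. The members and lists were chosen with earlier results of these data known. Named genes were the 10 subunits, the 2 genes of smallest p and the 2 most abundant of each list, and the 3 nearest in pattern to Jund and to Fos. Some genes that this rule names are not reported here.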

Additional observations from a re-analysis of the deposited data

How the results depend on the processing

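Jund kept a negative log2 fold change under all 15 alternatives (-0.85 to -0.54) and was called in 2 of them. No subunit was called without any 1 library. The count of subunits called was 1 with no filter and 1 with DESeq2, against 0. Genes called in all were 38 with no filter, 21 with DESeq2, 0 to 18 with each library left out in turn (18 without control replicate 3) and 4 without the B-cell-richest library of each group, an alternative that, with edgeR without a robust prior, was chosen after seeing the data; the cause was not tested. Of 150 values of subunits under alternatives, 134 kept the sign and 16 did not, none of them called. Without the B-cell-richest libraries, Jun was 0.47, Junb 0.028, Fos 0.38 and Atf3 0.061. With each library left out in turn, Jun ran from -0.51 to 0.34, Fos from -0.23 to 0.34, Fosl1 from -0.38 to 0.44, Atf3 from -0.22 to 0.086 and Batf3 from -0.031 to 0.57. With limma-voom Fosl1 was 0.12. The Fosl1 share of the summed FPKM in controls was 0.450%, and 0.291% without control replicate 1; no other share, nor the Fos to Jun family ratio, moved by over 1.5 times with a library left out.

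Replicate numbers showed no clear pairing of the samples: deviations from the group means correlated at -0.05, -0.06 and 0.08 for replicates 1, 2 and 3, and 2 of 6 libraries matched best with their own number. These values cannot exclude a batch shared by libraries of the same number. With the replicate block, 0 genes were called, Jund was -0.71, Fos 0.014 and Fosl1 0.018. The block lowered the SE of Jun from 0.46 to 0.19 and that of Fos from 0.25 to 0.17. It raised the SE of Jund from 0.18 to 0.19 and that of Fosb from 0.30 to 0.35, and the SEs of the other subunits moved in both directions.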

Other observations

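The authors' table assigns 46 genes to the bZIP family, of which 43 were tested. Of these, 16 were higher and 27 lower in the knockout (median log2 fold change -0.07), and 5 had an unadjusted edgeR p under 0.05, against 4.18% of all genes tested, while 0 passed after adjustment. Jund had the smallest p of the family. Next came Nfe2, a partner of small Maf proteins in blood cells, with 31.2 ± 9.42 CPM in controls and 19.9 ± 1.73 CPM in knockouts (SD, n = 3), with a log2 fold change of -0.65 (SE 0.22) and overlapping groups. Maf, a macrophage factor of the large Maf type, had 82.3 ± 18.6 and 61.6 ± 5.88 CPM, a log2 fold change of -0.42 (SE 0.17), with groups that did not overlap. Both had an edgeR adjusted p of 0.997 and were chosen after their values were seen.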
